A study of Homo sapiens and Mus musculus with 16 samples.

Results

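Accessible chromatin was examined at 5 long human genes, INPP4B, ITPR2, RPS6KA2, CDH23 and LRP1B, out of 19970 protein-coding genes, and at their mouse orthologs, out of 21755. INPP4B, ITPR2, RPS6KA2 and CDH23 were selected because the HPAF-II lists held many accessible regions near them with no counterpart in the other list, and LRP1B because such regions followed each other there without a break. The genes were thus chosen by their HPAF-II region counts, and below these counts are a description and not a finding. Every region overlapping a gene body or the 50 kb on each side of it was taken, also at start sites of other genes. Among these other genes were PSAP and VSIR at CDH23, and RNASET2 and MPC1 at RPS6KA2. The windows held 211 of 118107 regions in control, 145 of 97047 in HNF4G-KO, 72 of 80843 in KPC liver mets and 59 of 68074 in KPC primary tumor.

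The 16 ATAC-seq samples formed 4 groups of 4 replicates. HPAF-II, an established human pancreatic adenocarcinoma line, was measured as control cells, labelled wild type and CRISPR-Cas9, and as HNF4G-KO cells, which lack the nuclear receptor HNF4G and were made in the study by pooling knockout clones grown from single cells. The mouse groups were untreated cell lines, labelled wild type, from the KPC mouse model of pancreatic cancer: a line from a primary tumor and a line from liver mets. Each group was held as 1 list of regions for its 4 replicates, so no value has a replicate error, no test between groups could be made and the read depth is unknown. The control cells are not described as cloned, so that cloning and the loss of HNF4G cannot be told apart, and DNA copy number was not measured. The lists carried a region within 1 kb of a start site for 9 of 10 epithelial marker genes in all 4 groups. Of the markers of other cell types, 5 of 15 had such a region in control, 6 of 15 in HNF4G-KO and 3 of 14 in both KPC lists. PTPRC, ALB, INS, GCG and PRSS1 were among those without one in any list.

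ATAC-seq marks DNA that a transposase can reach, mostly active promoters and enhancers, and in long genes most such regions lie in introns. HNF4G belongs to the HNF4 family of nuclear receptors, which bind DNA as dimers at enhancers of gut, liver and pancreas genes. INPP4B and ITPR2 act on inositol signals: INPP4B is a phosphatase that removes a lipid product of PI3K, and ITPR2 is a receptor for inositol trisphosphate that releases calcium from the endoplasmic reticulum. RPS6KA2 encodes RSK3, a kinase activated by ERK. CDH23 is a cadherin of the tip links of inner-ear hair cells, and LRP1B is a very large endocytic receptor of the LDL receptor family whose gene lies at a common fragile site.

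A region was called shared where at least 1 bp of it overlapped a region of the paired list, and otherwise control-only, KO-only, mets-only or tumor-only. In all, 25.0% of control regions were control-only, 6.76% of HNF4G-KO regions were KO-only, 20.2% of mets regions were mets-only and 8.51% of primary tumor regions were tumor-only. Each region also carried a score of unstated scale, which is given as its percentile within its own list. Low-scoring regions were unshared more often than high-scoring ones: 75.5% of the lowest control decile was control-only and 0.0254% of the highest. In the lowest decile of the other lists the unshared part was 31.1% in HNF4G-KO, 54.1% in mets and 38.7% in primary tumor. The number of unshared regions that a locus would hold if each of its regions took the share of its score decile in the whole list is therefore given beside each count. It is a number of regions, also where it follows a percentage. Wilson 95% intervals follow shares in brackets and cover counting error only. At the human loci no shared control region overlapped its counterpart by less than 108 bp, and the closest control-only region lay 127 bp from a region of the other list.

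**Figure D1:**
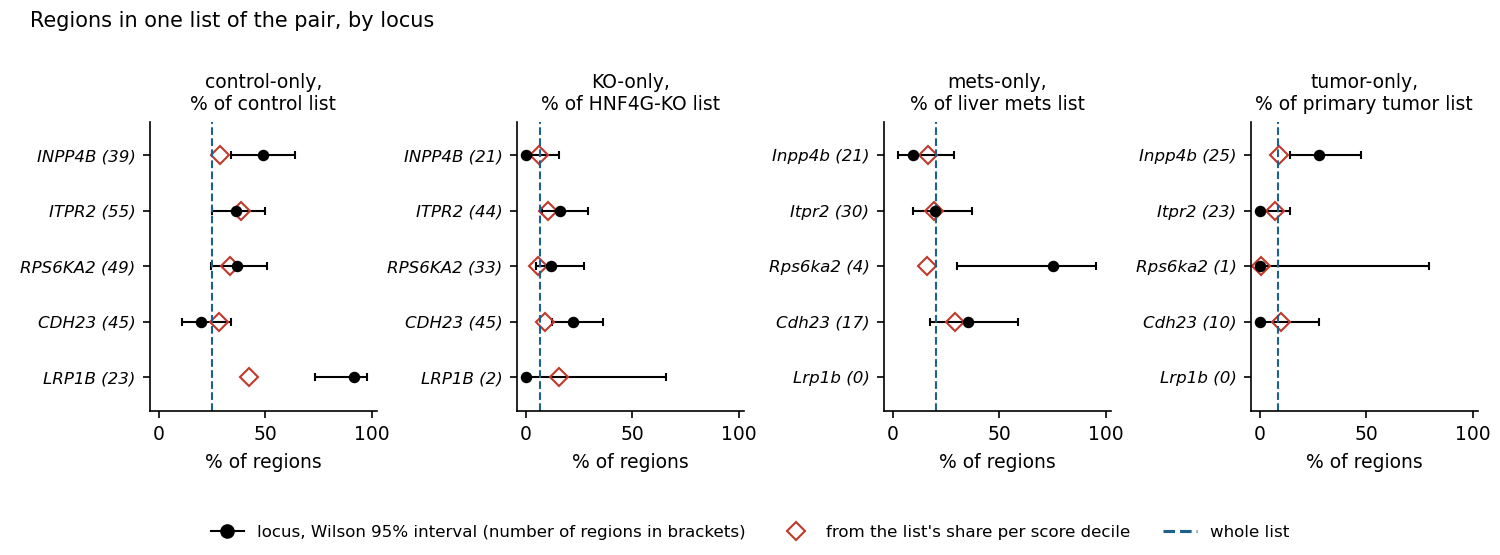
Share of regions without a counterpart at each locus (x axis, % of regions in the list, points with Wilson 95% intervals, number of regions in brackets), the share that score deciles give (diamonds) and the whole-list share (dashed lines). INPP4B and LRP1B in control and CDH23 in HNF4G-KO lie above their diamonds, but these genes were chosen by such counts. ITPR2 and RPS6KA2 lie close to theirs in control. Among the orthologs, not chosen by their counts, Inpp4b in primary tumor lies above its diamond by more than its interval. So does Rps6ka2 in mets, with 4 regions. With score deciles of the own chromosome, not drawn, the share given falls inside the interval for INPP4B, CDH23 and Inpp4b.

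INPP4B (ENSG00000109452, hg38 chr4:142023160-142847432, minus strand) held 39 control regions and 21 HNF4G-KO regions. Of the control regions 19 were control-only, or 48.7% (33.9 to 63.8), where score deciles of the whole list would give 11.2 regions. None of the 21 HNF4G-KO regions was KO-only, which allows a share of up to 14.3%, and score deciles would give only 1.33 regions. Its chromosome had the highest control-only share of the 22 autosomes, with 33.8% (32.6 to 35.1) of its 5104 regions outside this locus. Score deciles of that chromosome alone would give 15.2 control-only regions here. Within 5 Mb on each side the share was 32.1% (27.2 to 37.4) of 321 regions.

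The control-only regions of INPP4B were spread among shared ones. They fell into 10 runs of neighboring regions, of which 5 were single regions and the longest held 4, over 19.9 kb in the middle of the gene. No control-only region lay in an exon by its center, 18 lay in introns and 1 lay upstream, 3815 bp from the nearest start site. Their percentiles ran from 8.12 to 54.1 with a median of 28.5. The distance to the nearest HNF4G-KO region had a median of 6680 bp and ran from 160 bp to 53970 bp. The highest-scoring of them, at chr4:142420500-142421029, lay in an intron 427 kb from the 5′ end, and its central 300 bases are shown because it is the strongest region of the locus that the HNF4G-KO list lacks. It held no match to any motif searched, so all letters are lower case, and it is read on the plus strand of hg38.
INPP4B chr4:142420615-142420914: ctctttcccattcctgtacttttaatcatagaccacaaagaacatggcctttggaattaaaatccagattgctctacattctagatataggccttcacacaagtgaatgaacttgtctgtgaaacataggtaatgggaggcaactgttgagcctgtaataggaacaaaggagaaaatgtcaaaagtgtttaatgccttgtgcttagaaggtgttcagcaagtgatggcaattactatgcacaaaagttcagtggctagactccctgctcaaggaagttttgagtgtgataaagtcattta

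The start-site regions of INPP4B were in both lists. The region over the 5′ end was 2293 bp wide in control, at percentile 70.8, and in HNF4G-KO was covered by 2 narrower regions of 681 bp and 710 bp, at percentiles 67.0 and 59.3. An internal start site at chr4:142473257-142475144 stood at percentile 94.7 in control and 95.7 in HNF4G-KO. Another at chr4:142405055-142406004 stood at 60.3 and 35.9. Of the start-site regions present in control, these thus ranged from a small rise in rank to a change of -24.5 points. At 3 of the 6 RefSeq promoters of INPP4B neither list had a region. The RefSeq promoter under the 710 bp region is printed below from GRCh38.p14, on the minus strand, 250 bases before to 50 after the start. It is GC-rich (68.7%) and held none of the motifs.
INPP4B promoter chr4:142846252-142846551: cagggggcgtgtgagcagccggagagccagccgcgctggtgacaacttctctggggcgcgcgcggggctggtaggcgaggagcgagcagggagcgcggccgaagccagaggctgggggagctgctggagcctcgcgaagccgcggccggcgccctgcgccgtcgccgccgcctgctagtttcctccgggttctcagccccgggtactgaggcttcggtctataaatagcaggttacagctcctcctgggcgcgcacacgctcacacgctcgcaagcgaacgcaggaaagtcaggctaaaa

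Shared regions of INPP4B stood lower in the HNF4G-KO list. Of 20 shared control regions 17 had a lower percentile in HNF4G-KO and 3 a higher one, with a median change of -9.77 points (quartiles -15.6 and -4.36), against -4.65 over all 88632 shared regions, of which 70.0% fell. The rest of the chromosome gave -9.88 and the surrounding 5 Mb gave -10.8, so the shift at INPP4B was no larger than that of its chromosome. The widest fall was 27.7 kb upstream of the gene, from percentile 46.5 to 0.786, and the widest rise, from 5.44 to 29.5, was 70.2 kb inside it. When percentiles were counted among shared regions alone, the median change was -1.02, against 0.68 over all shared regions. Shared control regions had a median width of 656 bp at INPP4B and 565 bp in the whole list, and HNF4G-KO regions 383 bp here and 480 bp among shared regions of the whole list. Accordingly, when at least 50% of a region had to be overlapped, the control-only share was 69.2%. With the upper 50% of the control list set against the whole HNF4G-KO list it was 13.3%, or 2 of 15.

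**Figure D2:**
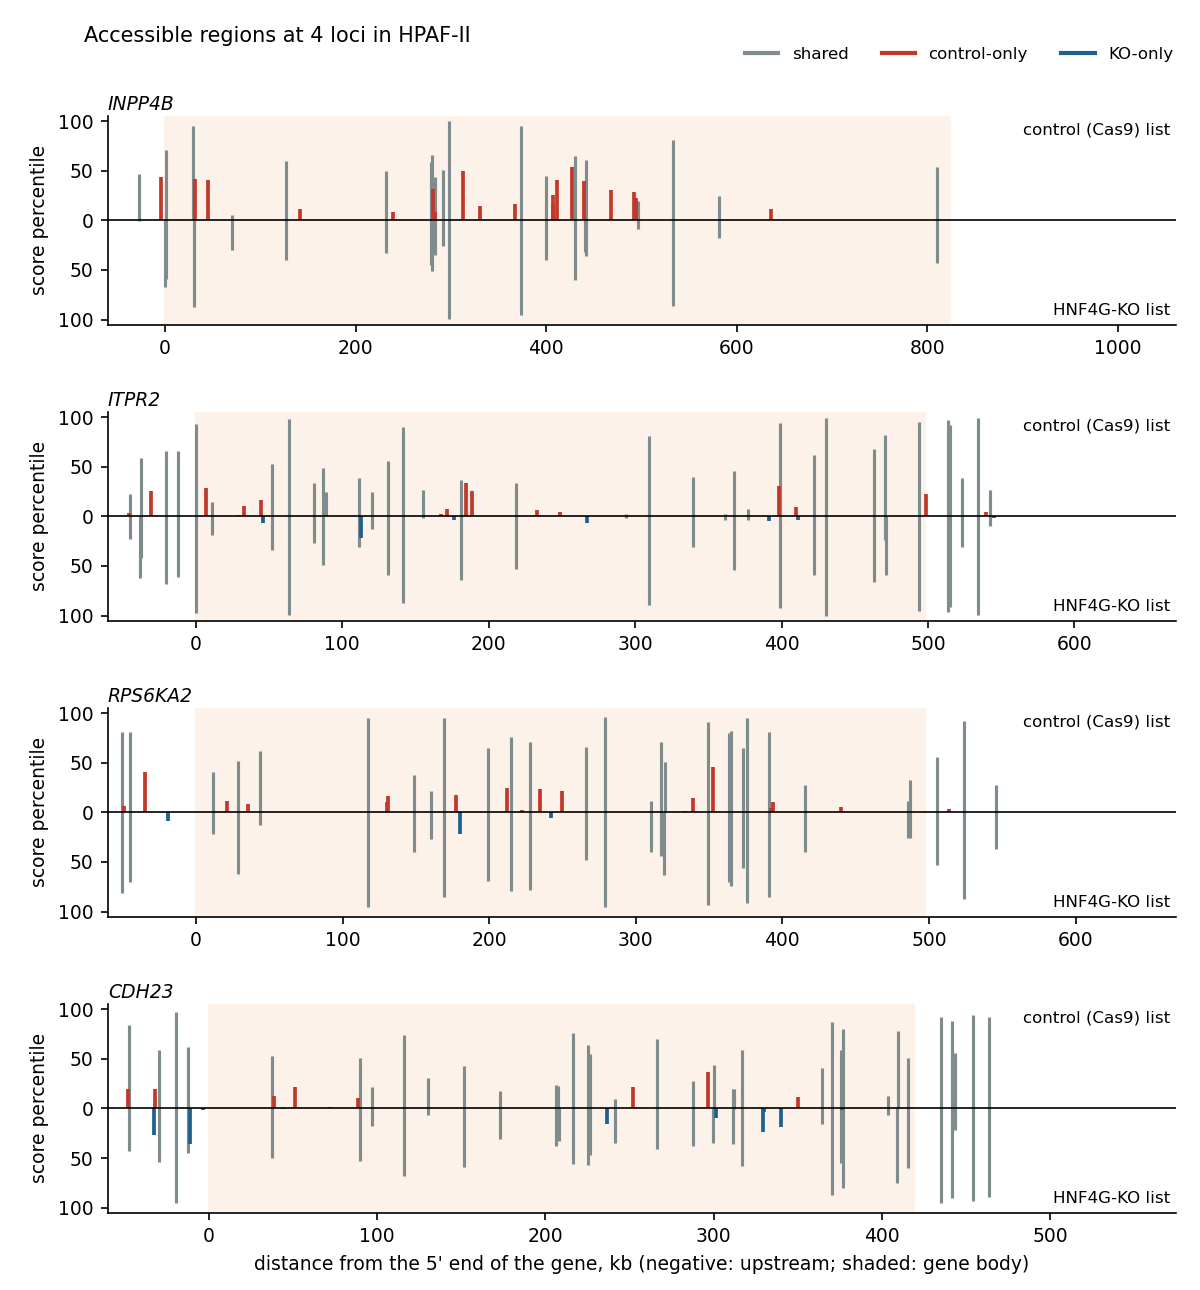
Regions at INPP4B, ITPR2, RPS6KA2 and CDH23 by distance from the gene's 5′ end (x axis, kb) and score percentile (y axis, control upward, HNF4G-KO downward). Red control-only regions at INPP4B reach percentile 54.1 and are scattered among shared regions, those at ITPR2 and RPS6KA2 are mostly short bars, and blue KO-only regions are most numerous at CDH23.

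ITPR2 (ENSG00000123104, hg38 chr12:26335352-26833194, minus strand) held the most control regions, 55, and 44 HNF4G-KO regions. Of these 20 were control-only, or 36.4% (24.9 to 49.6), and 7 were KO-only, or 15.9% (7.93 to 29.4). The score deciles of the whole lists would give 21.1 and 4.66. The control-only count of ITPR2 was thus close to that given by its scores. The control-only regions had a median percentile of 6.71 and the highest reached 33.7, and KO-only regions ran from 1.40 to 21.4. They formed 12 runs of at most 3 regions, and the KO-only regions were all single. No control-only region of ITPR2 was left when the upper 50% of the control list was set against the whole HNF4G-KO list.

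The promoter of ITPR2, 1599 bp wide in control, rose in rank from percentile 93.0 to 96.9. The highest-scoring regions of the locus were likewise in both lists: an intronic region 430.5 kb from the 5′ end stood at 99.6 in control and 99.9 in HNF4G-KO, and a region 63.9 kb from it at 98.1 and 99.8. Shared regions had a median change of -0.84 points, with 20 lower and 15 higher, and those of the rest of the chromosome one of -3.99. Among shared regions alone the median change was 2.26. The widest changes were a fall from 26.5 to 1.40 in an intron 155 kb from the 5′ end and a rise from 37.0 to 63.7 in an intron 181 kb from it. Near that rise, at 184 kb, lay the strongest control-only region, printed whole on the plus strand of hg38 as the best-scored region lost at ITPR2, with no motif match.
ITPR2 chr12:26648613-26648882: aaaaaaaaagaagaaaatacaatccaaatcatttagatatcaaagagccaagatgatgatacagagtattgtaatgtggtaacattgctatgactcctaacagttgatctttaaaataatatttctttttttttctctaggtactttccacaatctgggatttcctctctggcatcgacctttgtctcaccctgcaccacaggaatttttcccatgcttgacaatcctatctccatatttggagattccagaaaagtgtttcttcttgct

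RPS6KA2 (ENSG00000071242, hg38 chr6:166409364-166906451, minus strand) resembled ITPR2 in its counts. Of 49 control regions 18 were control-only, or 36.7% (24.7 to 50.7), against 16.3 from score deciles. Of 33 HNF4G-KO regions 4 were KO-only, or 12.1% (4.82 to 27.3), against 1.88. The control-only regions had a median percentile of 10.8, ran from 1.53 to 45.9 and formed 14 runs, 10 of them single regions and none longer than 2. With the upper 50% of the control list set against the whole HNF4G-KO list, no control-only region was left here either. Of the shared regions 15 were lower and 16 higher, with a median change of 0.25 points, where the rest of the chromosome gave -5.55. Among shared regions alone the median change was 5.20.

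The start sites of RPS6KA2 went apart. The region at chr6:166862268-166863327, over the start site 43.6 kb inside the longest gene model, was at percentile 61.4 in control and 13.0 in HNF4G-KO, and its width was 1060 bp and 595 bp. This was the widest fall among the 31 shared regions of the locus. The region over the start site 279 kb from the 5′ end, 2001 bp wide in control, was at 96.2 and 95.3. The RefSeq promoter under the first is printed on the minus strand (GRCh38.p14). Its region had the widest change in rank among the RefSeq promoters held, which were those of INPP4B, RPS6KA2 and CDH23. None of the motifs was found in it.
RPS6KA2 promoter chr6:166862476-166862775: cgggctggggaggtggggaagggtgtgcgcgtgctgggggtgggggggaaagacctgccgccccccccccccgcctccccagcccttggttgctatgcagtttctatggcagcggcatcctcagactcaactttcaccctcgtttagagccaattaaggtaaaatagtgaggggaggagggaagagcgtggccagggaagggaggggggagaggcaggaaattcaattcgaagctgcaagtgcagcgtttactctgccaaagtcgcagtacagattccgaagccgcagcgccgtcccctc
The strongest control-only region of RPS6KA2, in an intron 353 kb from the 5′ end and at percentile 45.9, is printed whole on the plus strand of hg38. The capitals mark its match to the AP-1 motif, TGACTCA or TGAGTCA.
RPS6KA2 chr6:166553497-166553743: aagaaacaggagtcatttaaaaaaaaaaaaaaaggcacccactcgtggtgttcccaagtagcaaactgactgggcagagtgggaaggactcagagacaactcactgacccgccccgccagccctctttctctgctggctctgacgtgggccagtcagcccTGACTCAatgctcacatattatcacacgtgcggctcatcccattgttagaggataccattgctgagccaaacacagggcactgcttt

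CDH23 (ENSG00000107736, hg38 chr10:71396920-71815947, plus strand) was chosen for the opposite direction and held 45 regions in each HPAF-II list. Of the HNF4G-KO regions 10 were KO-only, or 22.2% (12.5 to 36.3), where score deciles would give 4.02, and no protein-coding gene had more KO-only regions in its window. Of the control regions 9 were control-only, or 20% (10.9 to 33.8), against 12.7 regions from score deciles. The chromosome around it had the highest KO-only share of the 22 autosomes, 10.6% (9.71 to 11.5) of 4699 regions, and the lowest control-only share, 18.5% (17.5 to 19.6) of 5086. Score deciles of that chromosome alone would give 5.99 KO-only regions at CDH23.

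The KO-only regions of CDH23 were weak and scattered. Their percentiles ran from 0.424 to 36.1 with a median of 12.8, and none was left in the upper 50% of the HNF4G-KO list. They formed 7 runs, the longest of 3 regions over 11.3 kb, between 329 and 340 kb from the 5′ end. By their centers 7 were intronic and 3 lay upstream of the gene. Within 1 kb of an annotated start site lay 4 of the 10. These start sites were of VSIR (320 bp away), C10orf105 (458 bp), CDH23 itself (622 bp) and ENSG00000279406, which was overlapped. The one upstream at chr10:71385530-71385793 was the highest and lay 787 bp from a region shared by both lists, and it is printed whole on the plus strand of hg38 with its AP-1 match in capitals. AP-1 matches were found in 4 of the 10 KO-only regions and in 20.4% of all KO-only regions.
CDH23 chr10:71385530-71385793: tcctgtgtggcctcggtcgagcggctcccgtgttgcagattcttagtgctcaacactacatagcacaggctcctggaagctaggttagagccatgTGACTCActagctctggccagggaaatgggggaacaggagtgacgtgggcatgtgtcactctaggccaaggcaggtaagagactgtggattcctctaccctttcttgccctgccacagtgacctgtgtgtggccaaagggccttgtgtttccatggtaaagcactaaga

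The annotated 5′ end of CDH23 had no region in either HPAF-II list within 1 kb, and the RefSeq promoter there was not covered. An internal start site 116 kb into the gene had a shared region 404 bp away, at percentile 74.0 in control and 68.6 in HNF4G-KO. Shared control regions changed by a median of -2.20 points, with 22 lower and 14 higher, and the rest of the chromosome by -1.62. The sign turned when percentiles were counted among shared regions alone, with a median change of 3.99. The widest fall was 47.3 kb upstream, from 84.1 to 42.6, and the widest rise was in an intron 242 kb inside, from 0.228 to 35.0. Downstream of CDH23, between 435 and 464 kb, 4 of 5 regions stood between percentiles 88.3 and 95.3 in both lists. Among these 4, the region at chr10:71850630-71851696 overlapped a start site of the neighboring gene PSAP.

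**Figure D3:**
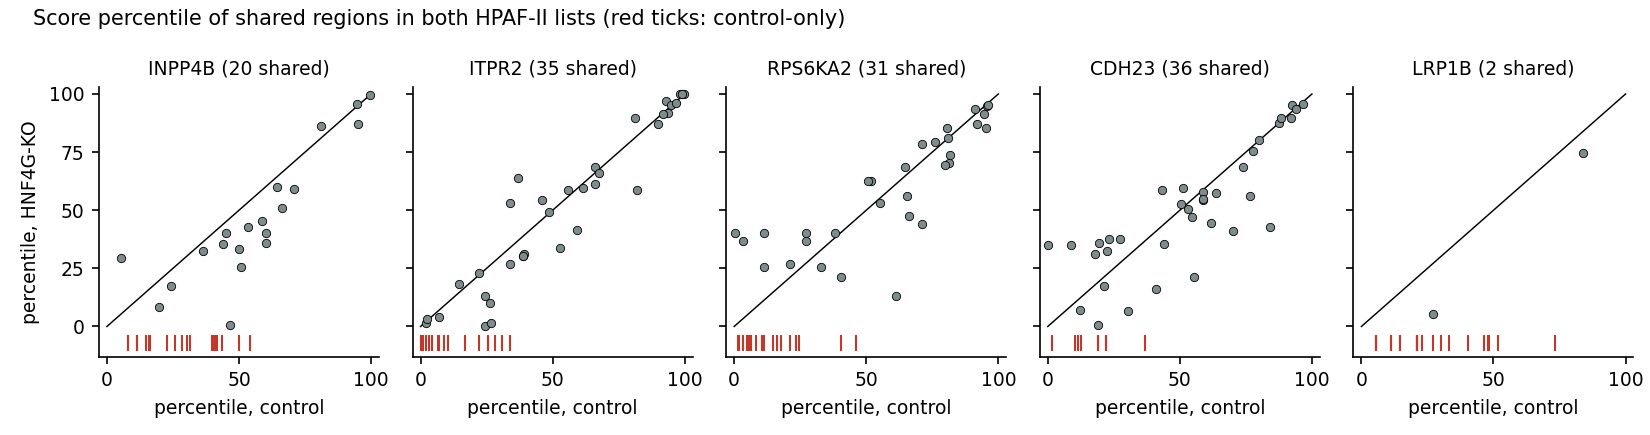
Score percentile of each shared region in control (x axis) and in HNF4G-KO (y axis) at the 5 human loci, with the line of equal percentile and control-only regions as red ticks at their control percentile. At INPP4B 17 of 20 points lie below the line, at RPS6KA2 15 of 31, and 1 point of RPS6KA2 at 61.4 and 13.0 is the start-site region described in the text.

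LRP1B (ENSG00000168702, hg38 chr2:140231423-142131016, minus strand) spans 1900 kb and had few regions, 23 in control or 1.15 per 100 kb, where the median of all protein-coding genes was 6.84. Of these 21 were control-only, or 91.3% (73.2 to 97.6), against 9.77 from score deciles and 10.8 from those of its own chromosome. It had the highest share of the 1807 genes with at least 20 control regions, whose median was 20.4%. Only 2 regions were in the HNF4G-KO list, both shared, where score deciles would give 0.312 KO-only regions. One at chr2:141911569-141912019, 219 kb inside the gene, stood at percentile 27.3 in control and 5.19 in HNF4G-KO, and the other, 34.9 kb upstream, at 83.9 and 74.4.

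The change at LRP1B was contiguous. From chr2:139685238 to chr2:141555158, a span of 1870 kb, 23 control regions in a row were control-only, 21 of them in the gene body and 2 downstream of it, with no HNF4G-KO region between them. Of 21030 runs in the control list only 1 other was as long, between 27217559 and 31162304 on chromosome 5. The HNF4G-KO list was empty from 139538945 to 141911714, or 2373 kb, and 25 control regions lay there at least in part. Of its 97023 gaps 45 were longer, and none held more than 25 control regions by their centers. The control regions at both ends of this gap had their centers outside it, so its exact place among the gaps is not given. In the 64 gaps of over 2 Mb the median number of control regions was 1.5.

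Within the run the percentiles went from 5.44 to 73.4 with a median of 21.2, and regions gathered between 1235 and 1676 kb from the 5′ end. The interval from the first to the last of these held 17 of the 21 control-only regions of the gene body. All were intronic by their centers. The nearest HNF4G-KO region was between 357 kb and 1158 kb away, whereas at INPP4B the median distance was 6680 bp. Neither list had a region within 1 kb of a start site of LRP1B itself. When the upper 50% of the control list was set against the whole HNF4G-KO list, only 3 regions remained and the share was 66.7%, or 2 of 3.

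**Figure D4:**
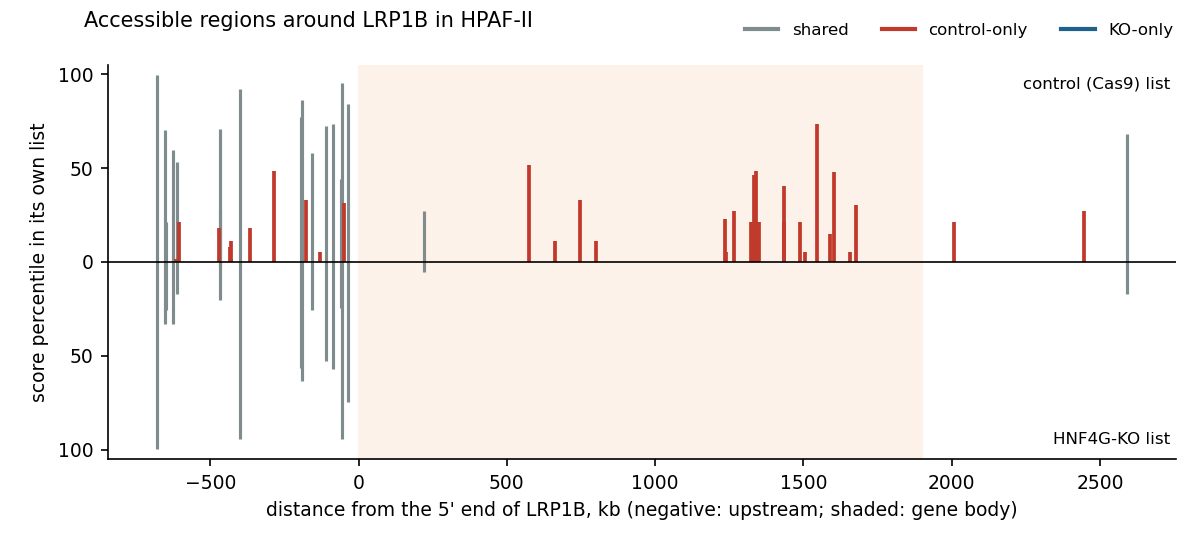
Regions from 700 kb upstream to 700 kb downstream of LRP1B by distance from its 5′ end (x axis, kb) and score percentile (y axis, control upward, HNF4G-KO downward). In the shaded gene body 21 control regions in red have no HNF4G-KO counterpart, whereas upstream regions are mostly gray and mirrored.

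Outside the run the HNF4G-KO list resumed. In the 700 kb upstream of LRP1B there were 27 control regions, of which 16 were shared and 11 control-only, and 17 HNF4G-KO regions. Of these 16 shared regions 14 stood lower in HNF4G-KO, with a median change of -20.2 points, but those at percentiles 95.3, 92.4 and 99.8 in control stood at 94.4, 94.1 and 99.7. In the 700 kb downstream there were 3 control regions, 1 of them shared. Within 5 Mb on each side of the locus 40.8% (34.6 to 47.3) of 228 control regions were control-only, and on the rest of the chromosome 29.2% (28.3 to 30.1).

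The strongest control-only region of LRP1B, at chr2:140586398-140586739 and percentile 73.4, covered the annotated start of the microRNA gene MIR7157 in an intron. Its central 300 bases are printed first, with no motif match. The strongest region of the run with an AP-1 match was at chr2:140791660-140792137, percentile 48.4, and the bases around its first match follow, with the match in capitals. Both are on the plus strand of hg38. AP-1 matches were in 9 of the 21 control-only regions of LRP1B, where 23.5% of all control-only regions had one.
LRP1B chr2:140586419-140586718: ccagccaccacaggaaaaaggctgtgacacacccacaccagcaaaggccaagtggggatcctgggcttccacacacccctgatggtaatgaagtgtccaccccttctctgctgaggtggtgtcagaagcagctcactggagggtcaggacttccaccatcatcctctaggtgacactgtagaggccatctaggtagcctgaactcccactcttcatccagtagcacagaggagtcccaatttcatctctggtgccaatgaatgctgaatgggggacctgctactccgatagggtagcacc
LRP1B chr2:140791660-140791742: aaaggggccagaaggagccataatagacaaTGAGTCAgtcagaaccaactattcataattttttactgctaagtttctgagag

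HNF4 motifs were sought because HNF4G was the gene removed. The motif CAAAGTCCA, read on both strands of the whole region, was in 0 of the 78 control-only regions of INPP4B, ITPR2, RPS6KA2 and LRP1B, which allows up to 3 of 78 by the limit for a count of 0, and in 1.43% of all 29475 control-only regions. It was in 3 of the 88 shared control regions at these loci, and in 1.65% of all shared regions. Shared regions were wider, so these whole-region shares are not at equal width. Within 200 bp around the region center it was in 1.07% of all control-only and 0.615% of all shared regions. At these loci it was then still in 0 of the 78. With 1 mismatch allowed in the whole region, 6 of the 78 control-only regions matched, or 7.69% (3.57 to 15.8), against 11.8% of all control-only regions. No KO-only region of CDH23 matched.

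All exact matches at the 5 loci were in shared regions. At ITPR2 the region with the match went from percentile 61.7 in control to 59.5 in HNF4G-KO. At RPS6KA2 the region 11.7 kb from the 5′ end went from 40.3 to 21.4 and the region 373 kb from it from 65.3 to 55.9. At CDH23 the region 403 kb from the 5′ end went from 12.2 to 7.12. All 4 stood lower in HNF4G-KO, by -2.20, -18.9, -9.43 and -5.08 points, where 70.0% of all shared regions stood lower, with a median of -4.65. They were picked out after their values were seen. The bases around each match, on the plus strand of hg38, are compared here with the motif or its reverse complement in capitals.
ITPR2 chr12:26410843-26410942: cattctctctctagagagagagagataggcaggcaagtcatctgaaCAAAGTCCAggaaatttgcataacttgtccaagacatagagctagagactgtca
RPS6KA2 chr6:166894762-166894861: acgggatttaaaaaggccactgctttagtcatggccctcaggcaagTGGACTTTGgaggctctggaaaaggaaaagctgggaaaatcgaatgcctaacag
RPS6KA2 chr6:166533655-166533754: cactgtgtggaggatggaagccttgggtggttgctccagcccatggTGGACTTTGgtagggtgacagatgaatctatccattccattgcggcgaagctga
CDH23 chr10:71800200-71800299: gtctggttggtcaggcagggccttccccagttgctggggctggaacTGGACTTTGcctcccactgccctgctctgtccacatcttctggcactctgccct

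Other motifs were counted in the 78 control-only and 88 shared regions of INPP4B, ITPR2, RPS6KA2 and LRP1B. AP-1 was in 29.5% (20.5 to 40.4) of the control-only regions and 31.8% (23.0 to 42.1) of the shared ones, against 23.5% and 34.0% in the whole list. TEAD (ACATTCCA) was in 5 control-only and 4 shared regions, or 6.41% and 4.55%, against 2.60% and 3.94% in the whole list. The FOXA motif TGTTTAC was in 3 and 10, or 3.85% and 11.4%, against 6.22% and 10.9%. The RUNX motif TGTGGTTT was in 1 and 6, or 1.28% and 6.82%, against 3.23% and 5.46%. CTCF was in 1 and 3, or 1.28% and 3.41%, against 2.66% and 4.92%. The motif AGATAAG of GATA factors was in 1 and 15. For GATA factors the share was 1.28% in control-only and 17.0% (10.6 to 26.2) in shared regions, and 4.01% and 7.50% in the whole list. The median width in the whole list was 263 bp for control-only and 565 bp for shared regions, and these motifs were not counted at equal width.

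The mouse orthologs, which played no part in choosing the genes, differed from each other between the KPC lines. Inpp4b had 25 regions in primary tumor and 21 in liver mets (mm10 chr8:81342556-82127914, plus strand). Of these 7 were tumor-only, or 28.0% (14.3 to 47.6), where score deciles of the whole list would give 2.31 and those of its own chromosome 3.81, and 2 were mets-only, or 9.52% (2.65 to 28.9), against 3.51. It ranked 9th by tumor-only share among the 645 genes with at least 20 primary tumor regions. Its chromosome had the highest tumor-only share of the 19 autosomes, 14.5% (13.4 to 15.6) outside the locus. The tumor-only regions ran from percentile 0.498 to 43.1 and none was left in the upper 50% of the tumor list. Within 50 kb of its start sites alone the share was 12.5%. The region over its 5′ end was shared, at percentile 40.9 in tumor and 33.8 in mets.

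Itpr2, Rps6ka2 and Cdh23 had no tumor-only region, where score deciles would give only 1.69, 0.00633 and 0.994. Itpr2 (mm10 chr6:146108299-146502223, minus strand) had 23 tumor regions, all shared, which allows a tumor-only share of up to 13.0%. It had 30 mets regions with 6 mets-only, or 20% (9.51 to 37.3), against 5.86 from score deciles. Among the mets-only regions 1 stood at percentile 72.0, 272 kb from the 5′ end. Rps6ka2 (mm10 chr17:7170115-7303315, plus strand) had 1 tumor region, over the 5′ end, at percentile 62.6 in tumor and 95.3 in mets. It had 3 further mets regions, all mets-only, where score deciles would give 0.654, and 2 of them, at 67.6 and 58.0, were upstream of the gene. Cdh23 (mm10 chr10:60302748-60696490, minus strand) had 10 tumor regions and 17 mets regions, with 6 mets-only, or 35.3% (17.3 to 58.7), against 4.96 from the whole list and 6.37 from its own chromosome. Their percentiles ran from 8.79 to 69.5, and the region at its 5′ end, 0.7 kb upstream, was shared, unlike the human gene.

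Lrp1b (mm10 chr2:40595246-42653624, minus strand) had no region in either KPC list. The primary tumor list was empty for 4414 kb around it and the mets list for 3813 kb. No unshared region could therefore be counted, and the contiguous stretch seen in HPAF-II has no mouse value beside it.

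**Figure D5:**
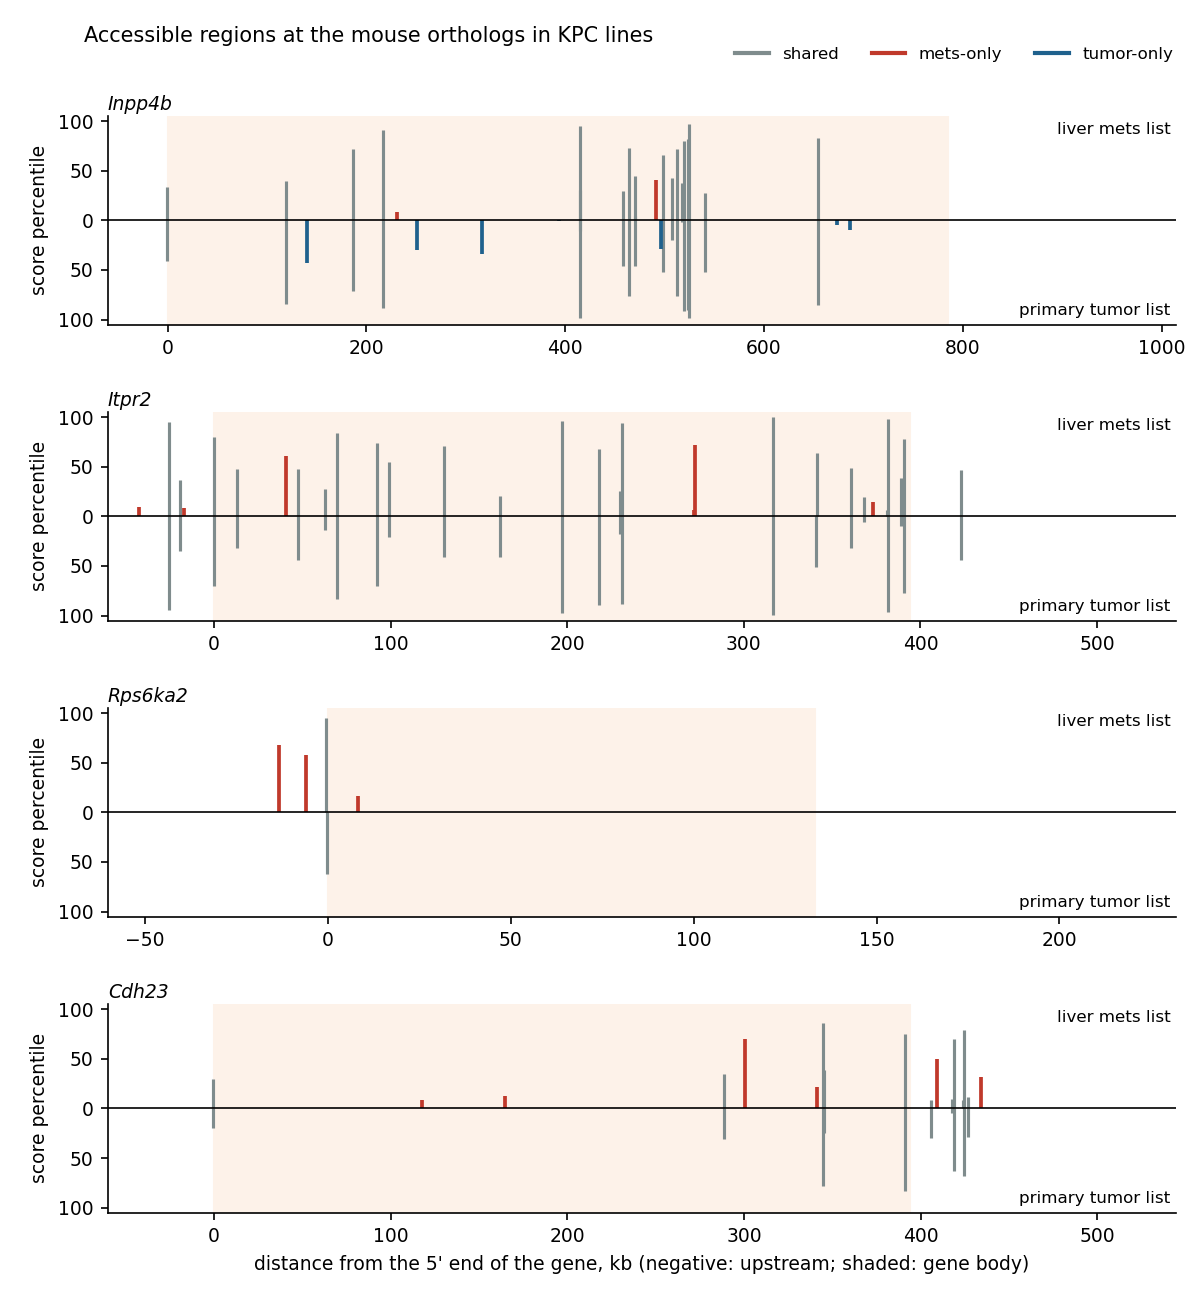
Regions at the mouse orthologs by distance from the gene's 5′ end (x axis, kb) and score percentile (y axis, liver mets upward, primary tumor downward). Blue tumor-only regions are found at Inpp4b, and red mets-only regions at all 4 genes, with the highest, at Itpr2, at percentile 72.0.

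Genes with the most similar pattern were found by the control-only share, the KO-only share and the median change of shared regions, over 1801 genes with at least 20 control and 5 shared regions. Those nearest to INPP4B were CTNNA2, an adhesion-complex catenin (9 of 20 control regions control-only, none of 11 KO-only, median change -9.43), and RAPGEF2, an activator of the small GTPase RAP (10 of 21, none of 11, -11.3). CDH23 was nearest to TTC7B (8 of 31 control-only, 6 of 29 KO-only) and to NEBL (4 of 27 and 7 of 31). RAPGEF2 lies on chromosome 4 like INPP4B, and NEBL on chromosome 10 like CDH23. The other genes named in this paragraph lie on other chromosomes than the genes they resemble. RPS6KA2 was nearest to PLD1, a phospholipase (9 of 25 and 2 of 17), and to ENSG00000273291 (10 of 28 and 3 of 22). ITPR2 was nearest to FLT3LG and ENSG00000269469, which overlap and share their regions (7 of 20 and 2 of 14). LRP1B had too few shared regions to be placed.

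Lists of related genes, counted without the 5 genes themselves, were mostly close to the number that their scores give. The 5 genes were chosen by their HPAF-II counts, so their own places in the lists and among long genes are a description. Among 20 other phosphoinositide phosphatases and kinases 74 of 305 control regions were control-only, or 24.3%, where score deciles would give 78.3. With INPP4B put back, it had the highest share of the 15 with at least 10 control regions, and INPPL1, a phosphatase of another PI3K product, the lowest, with 1 of 15. In the calcium store list the count was 73 of 320 (22.8%), against 77.2 regions from score deciles. The share was highest at the calcium release channel RYR1 with 11 of 27 and lowest at the phospholipase PLCG1 with 1 of 13. Among RSK kinases and their activators the count was 25 of 127 (19.7%), against 29.4 regions. RPS6KA2 had the highest share of 7 genes and the ERK kinase MAPK3 the lowest, with 1 of 17. In the Usher complex list the count was 53 of 178 (29.8%), against 47.4 regions. CDH23 had the lowest share of 8 genes and the mechanotransduction channel TMC1 the highest, with 11 of 28. In the LDL receptor family the count was 43 of 188 (22.9%), against 46.8 regions. LRP1B was highest of 12 genes and the Wnt coreceptor LRP5 lowest, with 1 of 22.

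Large genes of common fragile sites had more control-only regions than their scores give. Without LRP1B, 131 of the 351 control regions of 15 such genes were control-only, or 37.3%, against 104 regions from score deciles. MACROD2 held 31 of the 131, and 13 of the 15 genes had a share above the whole-list 25.0%. Of their 248 HNF4G-KO regions 17 were KO-only, or 6.85%, against 22.9 regions from score deciles. The whole-list KO-only share was close to this, at 6.76%. LRP1B stood above the other genes with at least 10 control regions, 11 with itself, and the synaptic gene NRXN3 was the lowest, with 5 of 21. The 241 other genes of 400 kb or longer with at least 20 control regions had a median control-only share of 28.0% (quartiles 21.2 and 37.9), and 1561 shorter ones 20% (13.6 and 26.1). INPP4B and LRP1B were above the upper quartile of the long genes, ITPR2 and RPS6KA2 inside the quartiles and CDH23 below the lower.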

How the data were processed

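ATAC-seq was made by the study with the Omni-ATAC protocol. The authors deposited 1 list of regions per group, each region with a score of unstated scale, used here only as its percentile within its list. The submitters' processing notes name Bowtie2 2.2.6, MACS2 2.1.1.20160309 and DiffBind, and the builds hg38 and mm10. The study's methods describe Bowtie2 mapping, MACS2 calls on combined replicates and a q threshold for ChIP-seq. For ATAC-seq the roles of these tools, thresholds, any read shift and how replicates were combined are not given in the sources used here. A deeper list holds more weak regions, so unshared counts mix accessibility with calling power. The lists cannot check the knockout itself.

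Lists were paired within species by an overlap of 1 bp (Python 3.11.15, numpy 2.4.6, pandas 2.3.3; checked against bedtools 2.31.1 and tested on simulated data). Coordinates are 1-based. Genes came from GENCODE v44 and vM21, promoters from RefSeq, whose table held 3 of the 5 genes. Exons and introns were assigned by region center. Similar genes had the smallest distance over 3 measures divided by their SD. For each family list, the genes with the highest and lowest control-only share were named. Sequences are of the highest-scoring unshared region of each human locus, the promoters and the motif matches named. The members, lists and rules were chosen with earlier results of these data known. No p-value was computed, since each group had 1 list. Alternatives covered the overlap, score thresholds, list size, window and motif mismatches.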

Additional observations from a re-analysis of the deposited data

How the results depend on the processing

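At INPP4B, ITPR2, RPS6KA2 and LRP1B together 47.0% of control regions (39.5 to 54.6) were control-only. The share was 54.8% when 50% of a region had to be overlapped, 32.5% with lists of equal size, 24.6% with the upper 50% of each list and 7.02% with the upper 50% of control against the whole HNF4G-KO list. The KO-only share of CDH23, 22.2%, was 5.56% with the upper 50% of each list and 0.00% with the upper 50% of HNF4G-KO against the whole control list. The run at LRP1B held 23 regions, 27 with 50% overlap, 16 with lists of equal size and 2 in the upper 50%. The mets-only share at the orthologs, 23.6%, was 15.2% in the upper 50%, and the tumor-only share, 11.9%, was 0.00% there and 4.08% within 50 kb of start sites. The median change of the 124 shared regions, -2.28 points, turned to 3.21 when percentiles were counted among shared regions only. With 1 mismatch, HNF4 was in 7.69% of control-only regions. Causes were not tested beyond the alternatives' own construction. Among 136 alternatives for single genes, 115 stayed within the interval and 21 moved.

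No paired analysis was possible because each group was held as 1 list, without columns per replicate, and leaving out a replicate was not possible for the same reason. Alternatives without a region at a locus, as for Lrp1b, gave no value. Weak regions set most shares, and without read depth a region missing from a list is only not listed.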

Other observations

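The run equal in length to that at LRP1B, with 23 control-only regions over 3945 kb of chromosome 5, overlapped no protein-coding gene. The next longest were taken from a listing that left out the runs of a single human chromosome. Their order is therefore not that of the whole list. That listing held runs of 20 regions at FSTL5, a follistatin-like secreted protein, and 19 at NAALADL2. A run of 18 lay at HTR1B, a serotonin receptor, and MEI4, and a run of 17 at EPHA7, an ephrin receptor. NAALADL2 had the highest control-only share of the other long genes, 80.9%, and among shorter ones it was KCNH8, a potassium channel, with 66.7%. HNF4G-KO had no run longer than 6 regions.

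In the KPC lists the large genes of common fragile sites had 84 of 220 mets regions mets-only, or 38.2%, against 51.3 regions from score deciles. Of their 152 tumor regions 19 were tumor-only, or 12.5%, against 13.1 regions. The other family lists had mets-only shares from 11.9% for RSK kinases to 24.0% for the Usher complex list.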
